A study of Mus musculus with 6 samples.

Results

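The regions described here are the distal XX-only COUP-TFII peaks of the mouse fetal mesonephros: 1800 autosomal peaks out of 11175 in the XX list. The study immunoprecipitated COUP-TFII from pooled chromatin of CD-1 mesonephroi at E14.5, in 2 XX samples and 2 XY samples, and also sequenced 2 input samples that pool both sexes. No genotype or treatment is labelled. Each sex has 1 deposited list of 300 bp peaks over both of its samples, with positions only. Replicate spread and sequencing depth are therefore unknown for every value given here. The tests set list against list rather than sex against sex, and all intervals (exact Clopper-Pearson, 95%) cover counting error only. The labels' extraction text names RUNX1 and fetal ovaries, whereas the titles, tissue, antibody and design name COUP-TFII and mesonephroi, and the latter were used. Peak positions carry no expression values, so the tissue could not be checked against marker levels.

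COUP-TFII, the product of Nr2f2, is an orphan nuclear receptor that binds AGGTCA half-sites, usually as repeats, and acts mainly in mesenchyme. In the mesonephros, which lies beside the gonad, it is found in the mesenchyme around the Wolffian duct, the forerunner of the male tract, and the Müllerian duct, the forerunner of the female tract. COUP-TFII in this mesenchyme is known for its part in the loss of the Wolffian duct from XX embryos. Distal binding sites, away from the ends of genes, are where enhancers are commonly found.

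Membership was chosen by position and by the overlap of both lists. Of 10879 autosomal XX peaks, 3539 (32.5%) shared no base with any of the 9846 XY peaks. Of these, 1386 had their centre within 1 kb of an end of a RefSeq gene of any biotype and were left out. A further 353 lay over 100 kb from the nearest protein-coding gene body and were also left out. The 1800 that remained were 46.3% of the 3887 autosomal XX peaks at such distal positions, and the other 2087 overlapped an XY peak (called shared here). The same rule applied to the XY list gave 805 distal XY-only peaks. Positions alone cannot tell a place without binding in XY tissue from one that fell short of the peak threshold.

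Most of the overlap behind this choice was not a matter of a few bases. The shared distal peaks had a median of 268 of 300 bp in common with their XY peak, and 20 of the 2087 had 50 bp or fewer. At the edge of the rule, the members nearest to an XY peak lay 302 bp centre to centre at Spdya and 305 bp at Mex3c. The shared peaks with the least overlap had 6 bp at Hpgd and 7 bp at Slf2. At the 1 kb limit, members at Gypc and Adamts15 lay 1005 and 1007 bp from a gene end, and peaks at Zc3hav1 and Sox4 were left out at 1000 and 999 bp. At the 100 kb limit, members at Cbln4 and Tcl1 lay 99.9 and 99.7 kb from the gene, and peaks at Bambi and Top1 were left out at 100.2 and 100.3 kb.

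Base sequence could be read for members that overlap a window of the RefSeq start table (GRCm38.p6, 250 bases before to 50 after an annotated transcript start). Such starts lie inside genes or belong to other transcripts, since member centres are over 1 kb from the ends of every gene body. In all, 72 members overlapped 80 windows, and in 24 members at least 150 bases before the start lay within the peak. Of these 24, 4 held the half-site AGGTCA on either strand, and the sequence of each is given to show where the half-site stands, in capitals, 5′ to 3′ on the gene's strand. Disp1, which releases hedgehog ligands from the cells that make them, has its stretch at chr1:183147558-183147779 (minus strand), inside the gene. Mrpl22, a mitochondrial ribosomal protein gene, has a stretch with 2 half-sites at chr11:58171414-58171663 (plus strand). The noncoding gene Gm30234, 26.1 kb outside its nearest coding gene Xpnpep1, has one at chr19:53064690-53064939 (minus strand). Slc39a8, a metal ion transporter gene, has one at chr3:135825407-135825656 (plus strand).
Disp1: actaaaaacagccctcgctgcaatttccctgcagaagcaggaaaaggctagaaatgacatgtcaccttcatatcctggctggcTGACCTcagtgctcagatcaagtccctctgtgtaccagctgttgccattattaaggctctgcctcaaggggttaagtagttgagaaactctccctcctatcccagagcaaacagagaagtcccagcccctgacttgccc
Mrpl22: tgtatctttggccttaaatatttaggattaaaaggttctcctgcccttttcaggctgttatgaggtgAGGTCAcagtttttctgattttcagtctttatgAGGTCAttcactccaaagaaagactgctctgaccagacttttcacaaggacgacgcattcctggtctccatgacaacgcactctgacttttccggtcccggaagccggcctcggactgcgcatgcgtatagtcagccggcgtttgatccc
Gm30234: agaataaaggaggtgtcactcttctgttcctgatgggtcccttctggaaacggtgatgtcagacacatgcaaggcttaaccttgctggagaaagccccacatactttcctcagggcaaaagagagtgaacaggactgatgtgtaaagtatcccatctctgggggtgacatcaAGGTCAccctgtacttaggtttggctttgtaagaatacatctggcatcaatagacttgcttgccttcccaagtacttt
Slc39a8: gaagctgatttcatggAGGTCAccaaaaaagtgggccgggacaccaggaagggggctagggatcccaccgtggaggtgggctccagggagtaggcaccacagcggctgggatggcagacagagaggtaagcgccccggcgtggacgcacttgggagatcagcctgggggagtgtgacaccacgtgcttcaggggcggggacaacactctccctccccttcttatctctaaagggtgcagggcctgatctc

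The other 20 stretches held no AGGTCA, and 3 of them are given for their genes, chosen after their sequences were seen. Sema4b encodes a semaphorin and Plxnb2 encodes a plexin receptor of class 4 semaphorins, so a ligand and a receptor of the same guidance family each had a member at an internal start. Rbpj, the DNA-binding factor of the Notch pathway, had a member there too, with an XY peak 0.384 kb away, so that its 2 peaks lie side by side without a shared base. Capitals mark the GC box GGGCGG or its reverse complement CCGCCC, of which Sema4b (chr7:80198338-80198587, plus strand) and Plxnb2 (chr15:89180823-89181038, minus strand) hold 2 each and Rbpj (chr5:53590236-53590485, plus strand) none.
Sema4b: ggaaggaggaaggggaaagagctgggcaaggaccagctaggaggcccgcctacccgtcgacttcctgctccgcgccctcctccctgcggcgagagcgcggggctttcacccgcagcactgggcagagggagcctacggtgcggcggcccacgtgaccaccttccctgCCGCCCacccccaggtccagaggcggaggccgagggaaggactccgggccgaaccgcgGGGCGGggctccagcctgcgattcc
Plxnb2: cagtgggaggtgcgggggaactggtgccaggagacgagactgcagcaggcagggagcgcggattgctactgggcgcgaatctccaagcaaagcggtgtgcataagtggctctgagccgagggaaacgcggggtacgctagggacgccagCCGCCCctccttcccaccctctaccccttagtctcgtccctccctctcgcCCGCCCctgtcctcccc
Rbpj: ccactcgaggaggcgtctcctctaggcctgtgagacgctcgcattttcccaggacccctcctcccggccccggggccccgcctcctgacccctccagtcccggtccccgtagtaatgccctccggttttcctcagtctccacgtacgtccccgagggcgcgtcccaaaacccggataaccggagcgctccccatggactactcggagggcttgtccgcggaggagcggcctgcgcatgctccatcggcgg

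Over whole 300 base windows, AGGTCA was found in 13 of the members' 80 windows (16.3%, 8.95 to 26.2) and in 5110 of all 31396 autosomal windows (16.3%). The share was 8.97% of 78 windows at XY-only distal peaks and 15.5% of 328 windows at shared distal peaks. A direct repeat of AGGTCA with 1 base between the copies was in 0 of the members' 80 windows, which allows up to 4.51%, and in 12 of the 31396. GGGCGG was in 61.3% of the members' windows, 59.0% of the XY-only ones and 66.5% of the shared ones, against 36.0% of all windows. The members' windows had a median GC content of 59.7%, against 53% for all windows. CCGGAAG, the core of ETS factor sites, was in 8.75% of the members' windows, 14.1% of the XY-only ones, 19.2% of the shared ones and 9.0% of all. TGANTCA, the core of AP-1 sites, was in 6.25% of the members' windows and 7.84% of all, GGAATG, the core of TEAD sites, in 17.5% and 14.6%, and CCAAT in 38.8% and 37.3%. All motifs were searched on both strands, GGGCGG and CCGGAAG go with GC content, and these shares describe annotated starts only, not the peaks without one.

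The members were less often at such internal starts than the distal peaks of either other class. The start table used here has no windows on chromosome 18, which leaves 1733 members, and 72 of them (4.15%, 3.26 to 5.20) overlapped a window. The share was 70 of 770 (9.09%) for XY-only distal peaks and 298 of 2021 (14.7%) for shared distal peaks. The odds ratio was 0.434 (0.304 to 0.619) against XY-only peaks, with adjusted p = 4.34e-06 by Fisher's exact test, two-sided, Benjamini-Hochberg over 6 tests. Against shared peaks it was 0.251 (0.189 to 0.328), with adjusted p = 1.43e-28 by the same exact test. The members' share was lower on 16 of 18 autosomes in the first comparison and on all 18 in the second. Both tests were added after the start table was seen.

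The members also lay inside protein-coding genes less often. Of the 1800, 1034 (57.4%, 55.1 to 59.7) had their centre within a coding gene body, against 526 of 805 XY-only distal peaks (65.3%, 61.9 to 68.6) and 1359 of 2087 shared distal peaks (65.1%, 63.0 to 67.2). The odds ratio was 0.716 (0.600 to 0.854) against XY-only peaks and 0.723 (0.634 to 0.825) against shared peaks, with adjusted p = 0.000211 and 2.95e-06 by Fisher's exact test. The share was lower for the members on 16 of 19 autosomes in the first comparison and 15 in the second, and it ran from 45.0% on chromosome 13 to 67.2% on chromosome 16. The rule itself limits distance from gene ends and gene bodies, alike for each class, and this share depends on those limits. With gene ends within 2.5 kb left out, the ratios were 0.804 and 0.818, with adjusted p of 0.0316 and 0.0105 by the same exact test. With peaks at annotated starts left out, the ratios were 0.770 and 0.860, with adjusted p of 0.00738 and 0.0347 by the same exact test. The gene table gives no exons, so intronic and exonic positions were not told apart.

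**Figure D1:**
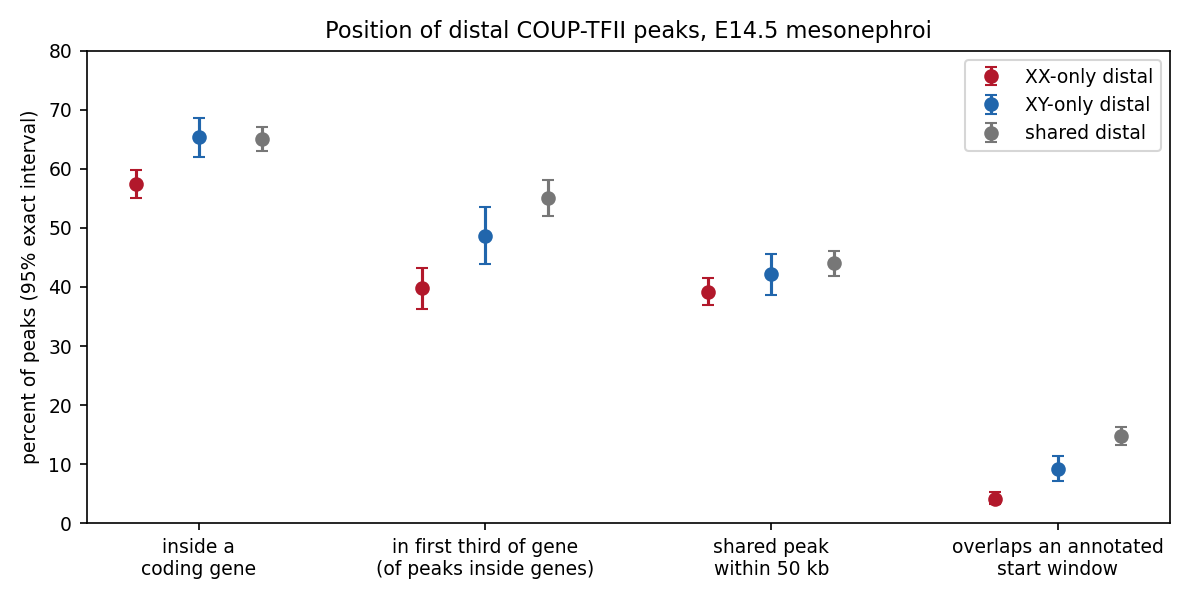
Share of distal peaks (y axis, percent, with exact 95% intervals) in 4 positions (x axis) for XX-only, XY-only and shared distal peaks. The XX-only point is the lowest in all 4 positions, at 57.4% inside genes and 4.15% at annotated start windows. For a shared peak within 50 kb a difference from XY-only peaks was not shown, and the first part of the gene was not tested.

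**Figure D2:**
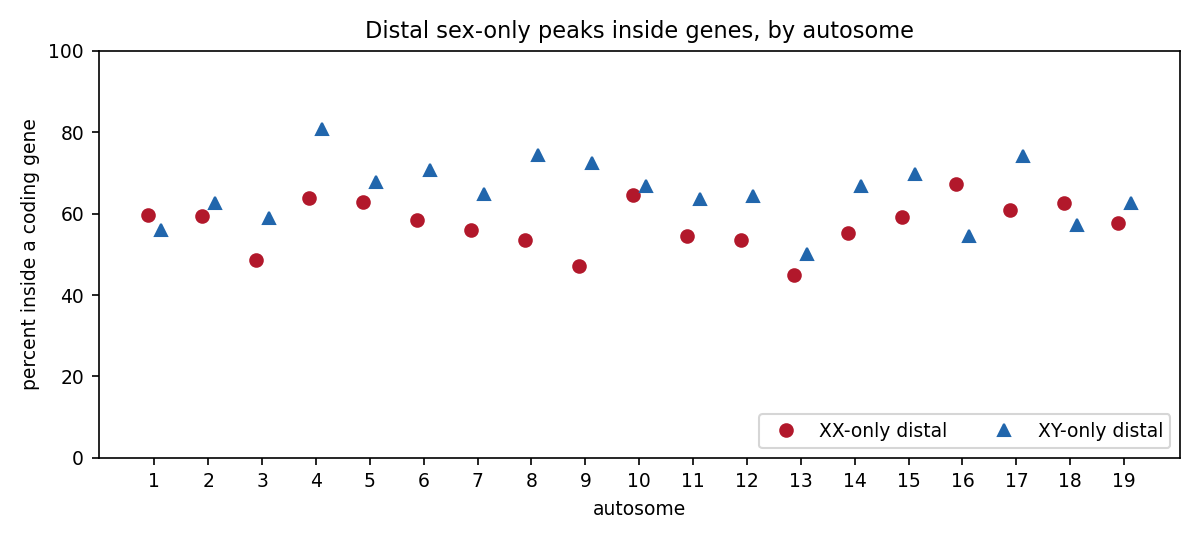
Percent of distal peaks inside a coding gene (y axis) on each of the 19 autosomes (x axis) for XX-only peaks (circles) and XY-only peaks (triangles), 1 value per list. The XX-only value is the lower on 16 autosomes.

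Positions along the gene were counted for members inside a gene of known strand. Of these 800, 318 (39.8%) lay in the first of 3 equal parts of the gene counted from its start, 246 (30.8%) in the middle part and 236 (29.5%) in the last. The first part held 48.7% of 425 XY-only and 55.1% of 1087 shared distal peaks, values given without a test. Of the 766 members outside coding genes, 140 (18.3%) lay in the body of a noncoding gene or pseudogene. This share was 17.6% for XY-only and 16.6% for shared distal peaks. Where strand was known, 337 of 617 (54.6%, 50.6 to 58.6) lay on the upstream side of the nearest gene. It was 47.0% (40.0 to 54.2) for XY-only and 50.1% (45.8 to 54.3) for shared distal peaks. Both intervals overlap that of the members, and no test was run. The median distance of outside members from the gene body was 23.4 kb. Within 10 kb lay 207 (27.0%), against 27.2% of XY-only and 29.5% of shared distal peaks outside genes.

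Most members were not close neighbours of an XY peak. The nearest XY peak was a median of 52.9 kb away (quartiles 19.4 and 120 kb), and 106 members (5.89%) had one within 1 kb, 263 (14.6%) within 10 kb and 869 (48.3%) within 50 kb. The rule itself left out XX peaks that overlap an XY peak. The nearest other XX peak was a median of 45.6 kb from the members and 40.2 kb from shared distal peaks. XY-only distal peaks lay a median of 37.7 kb from an XX peak. The XX list is the longer (11175 peaks against 9846), which bears on distances to it, and these medians were not tested. Among the close pairs at named genes, an XY peak lay 0.330 kb from a member at Zbtb7c, 0.468 kb from the member near Kit, 0.887 kb from one at Axin2 and 0.878 kb from the member at Nid2. At the other end, 13 members had no XY peak within 1000 kb. The 5 most remote were all inside genes: Epha7, an ephrin receptor, with the nearest XY peak 2468.5 kb away, Dpp10 (1626.79 kb), Brinp1 (1465.15 kb), Rbfox1 (1322.37 kb) and Galnt13 (1292.33 kb). Other XX peaks were about as far from the members at Epha7 (2468.53 kb), Brinp1 (1465.1 kb) and Galnt13 (1292.33 kb), and lay 1121.99 kb from the one at Rbfox1 and 364.982 kb from the one at Dpp10, so most of these stood far from any peak of either list.

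A shared peak lay within 50 kb of 706 members (39.2%, 37.0 to 41.5). The share was 42.1% (38.7 to 45.6) for XY-only distal peaks, an odds ratio of 0.887 (0.747 to 1.05) with adjusted p = 0.167 by Fisher's exact test, so a difference was not shown at this distance. When 10 kb was used instead, the ratio was 0.612 with adjusted p = 0.000332 by the same exact test, from 8.83% of members and 13.7% of XY-only peaks. Another shared peak lay within 50 kb of 918 shared distal peaks (44.0%), and the members' ratio to these was 0.822 (0.721 to 0.936), with adjusted p = 0.00324 by the exact test.

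**Figure D3:**
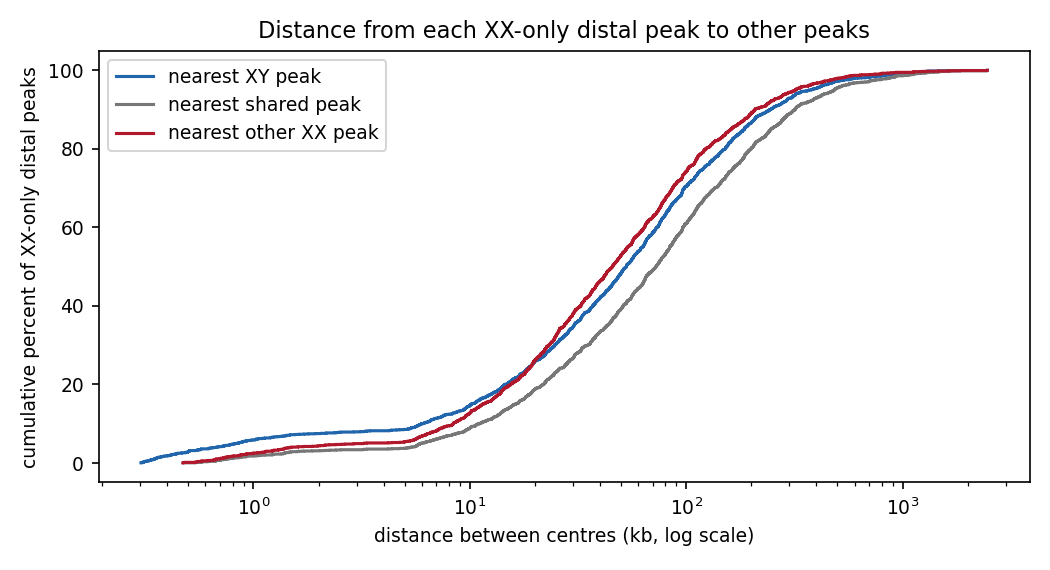
Cumulative percent of the 1800 XX-only distal peaks (y axis) by the distance between centres (x axis, kb, log scale) to the nearest XY peak, shared peak and other XX peak. The XY curve reaches 5.89% at 1 kb and 48.3% at 50 kb.

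Each member was given to the nearest protein-coding gene body, which states position and not regulation. Peaks of both lists were assigned in this way, up to 100 kb. A gene said to have no XY peak can therefore have one nearby that was not assigned to it. The members fell to 1559 of 20661 autosomal coding genes (7.55%), against 3.62% for XY-only and 8.62% for shared distal peaks. Of the 1559 genes, 1365 had 1 member, 158 had 2 and 36 (0.174% of all) had 3 or more. For 680 of the genes (43.6%) no peak of the XY list was nearest to the same gene, and for 564 the single member was the only peak of either list. In the other direction, 301 of the 748 genes with an XY-only distal peak (40.2%) had no XX peak. A shared peak fell to 700 of the 1559 genes with a member (44.9%), and 382 of these 1559 (24.5%) had a shared peak within 1 kb of a coding gene end. This last share was 23.3% for genes with an XY-only distal peak, 19.6% for genes with a shared distal peak and 21.3% for all autosomal coding genes. An XY-only distal peak fell to 201, which is 12.9% of the genes with a member and 26.9% of the 748 genes with an XY-only distal peak. Gene length moved with these counts: genes with a member had a median length of 61.4 kb, against 17.5 kb for all autosomal coding genes. The median was 67.9 kb for genes with an XY-only and 54.9 kb for genes with a shared distal peak. The share with a member was 2.44% in the shortest of 3 equal groups by length, 5.49% in the middle one and 14.7% in the longest. It rose likewise for XY-only (1.15%, 2.38% and 7.33%) and shared distal peaks (2.67%, 6.95% and 16.2%), so this is not particular to the members. The part of gene length in the counts below was not tested.

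Msrb3 had 6 members, the most of any gene. There were 5 each at Tshz2, Rbms3 and Zbtb7c, and 4 each at Fggy and Rad51b. Msrb3 encodes a methionine sulfoxide reductase (gene 320183, chromosome 10, 120781100 to 120899011, minus strand). Of its members, 2 lay inside the gene and 4 downstream at 16.8, 17.5, 35.8 and 60.0 kb, while its 3 XY peaks included 1 shared. All 5 members at Tshz2, a zinc finger transcription factor gene (gene 228911, chromosome 2, 169632509 to 170072751), lay inside it, from 16.0% to 96.0% of the way along, and both of its XY peaks were shared. Fggy, a carbohydrate kinase gene (gene 75578, chromosome 4, 95557480 to 95926939), had 4 members and no XY peak assigned to it, with 2 inside and 2 upstream at 39.2 and 77.5 kb. An XY peak not assigned to Fggy lay 45.3 kb from the member 77.5 kb upstream. At Rbms3, an RNA-binding protein gene of 1057.17 kb, 7 of 12 XX peaks were shared, so its members stood among common sites. Rad51b, a gene of recombinational DNA repair, had 6 shared among 10 XX peaks. Zbtb7c, a zinc finger gene, had 4 members inside and 1 outside, with 4 XY peaks of which 2 were shared.

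The genes with 3 members that are named for their count were Abr, Arsb, Atxn1, Auts2, Castor2, Cpsf6, Cradd, Dnm3, Emx2, Fat1, Glis3, Gm44812, Gpc5, Gpc6, Iqsec1, Kazn, Magi1, Mob3b and Pakap. Naming by count stopped at 25 genes, by count and then symbol, so others with 3 are left out. Spry2 also had 3 and is named below for its list and run. Of all 36 genes with 3 or more, 6 had no XY peak: Fggy, Cradd, Fat1, Iqsec1, Kazn and Mob3b. This is a smaller share than the 43.6% of all genes with a member. Cradd is a death-domain adaptor, Fat1 is a large protocadherin, Iqsec1 activates Arf GTPases and Kazn is a protein of cell junctions. At Fat1 the nearest XY peaks were 354 to 475 kb from its members. Another 25 of the 36 had at least 1 shared peak. Gpc5 and Gpc6, neighbouring glypican genes on chromosome 14, had 3 members each, all inside and all at least 320 kb from an XY peak. Of the 119 members at these 36 genes, 79 lay inside. The genes had a median length of 349.2 kb, and 33 of them were in the longest of the 3 length groups.

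Emx2 was an exception in length (6.67 kb). It encodes a homeobox factor required for the urogenital tract (gene 13797, chromosome 19, 59458690 to 59465357, plus strand). Its members lay 40.5 and 26.4 kb upstream (59418088-59418387 and 59432123-59432422) and 4.08 kb downstream (59469286-59469585). Its single XY peak was shared and lay within 1 kb of a gene end. Spry2, a feedback inhibitor of FGF receptor signalling and also short (4.87 kb), had a pair of members 0.471 kb apart at 76.0 and 76.5 kb downstream and another 1.92 kb upstream. No XY peak lay within 80 kb of these 3.

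**Figure D4:**
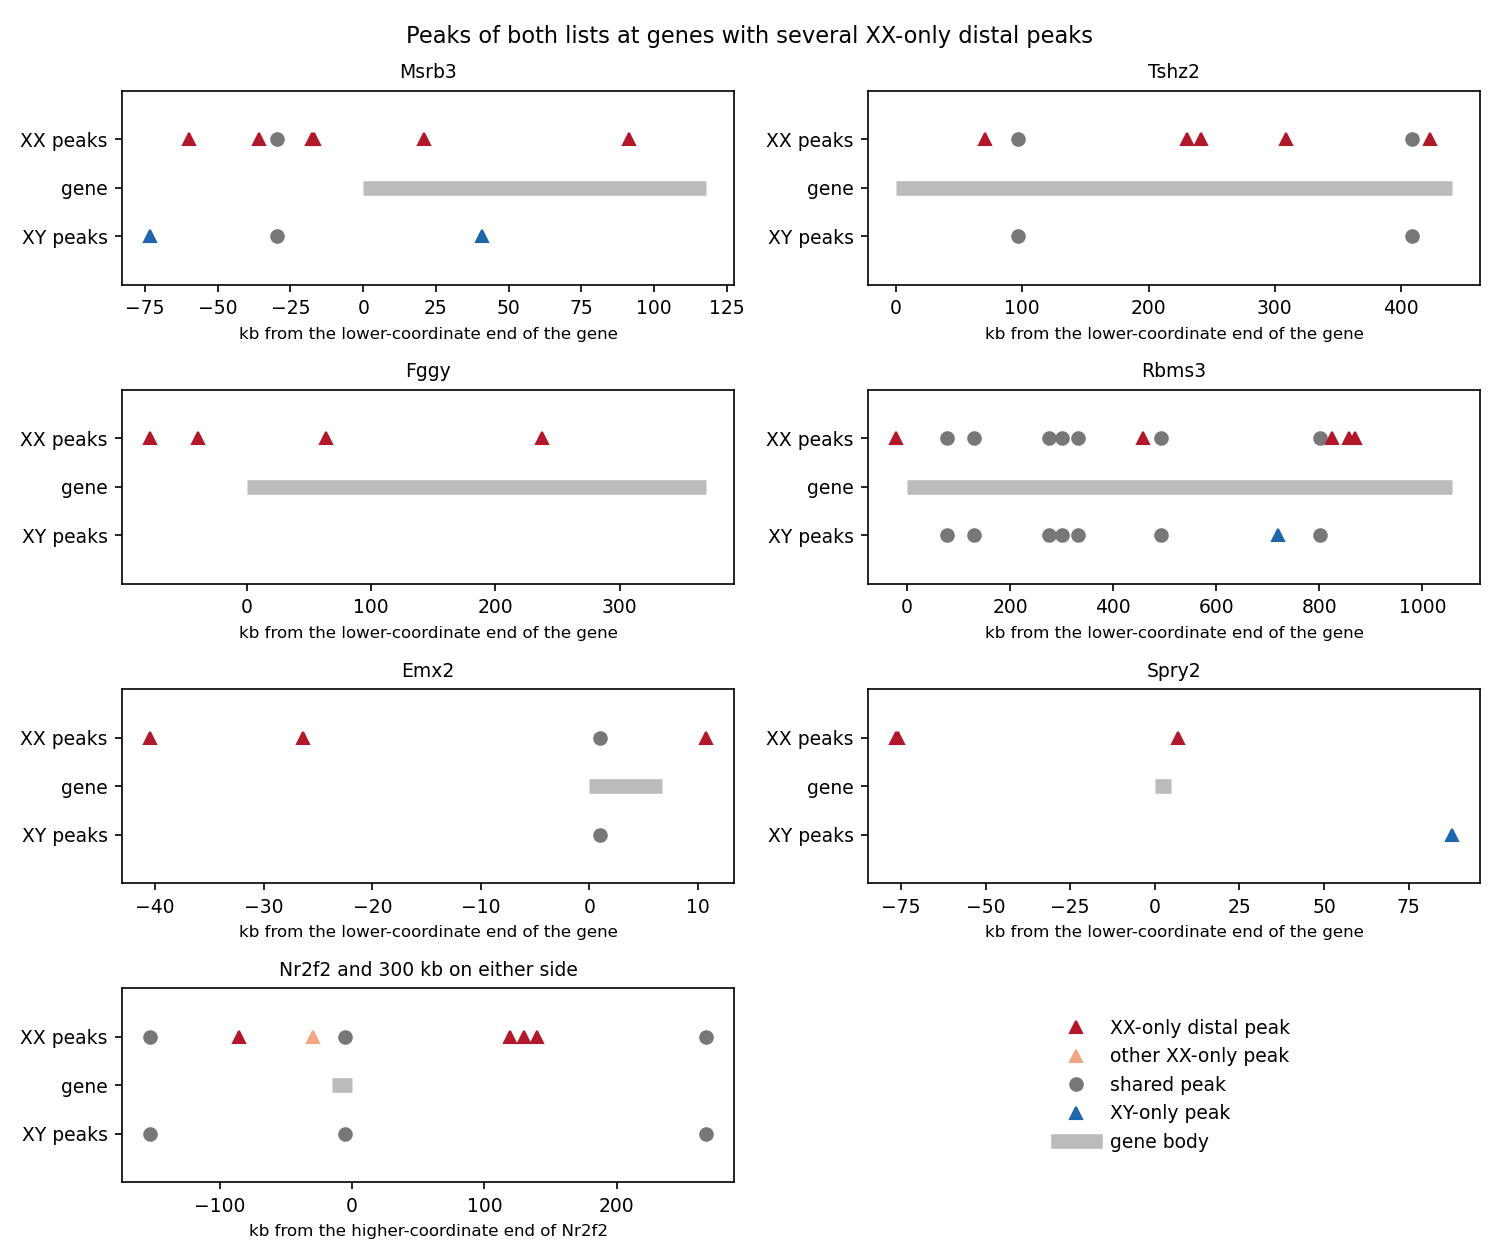
Positions of XX peaks (upper row) and XY peaks (lower row) at 6 genes and within 300 kb of Nr2f2, as kb from 1 end of the gene body (grey bar), with the x axis scaled for each panel. Triangles are sex-only peaks and grey circles shared peaks. The 6 gene panels show only peaks assigned to the gene, so the Fggy panel, with no XY peak, leaves out XY peaks assigned elsewhere. All 5 XX-only distal peaks of Tshz2 are inside the gene.

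Neighbouring members with centres at most 20 kb apart made 55 runs with 113 members (6.28%), of which 52 were pairs and 3 held 3 members. Runs were not counted in the other classes, so how this share compares with theirs is unknown. The runs of 3 were at Msrb3 (19.0 kb, with 1 XY peak in the span), beside Gm44812 (20.3 kb, with no XY peak) and between Ptpdc1 and Zfp169 (20.8 kb, with 2 XY peaks, of which one was 0.347 kb from a member). The closest pairs were those of Spry2 and of Iqsec1, 0.548 kb apart inside the gene.

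The run at Gm44812, a predicted gene, is on the same side of Nr2f2 as that gene's start. Nr2f2 itself (gene 11819, chromosome 7, 70351946 to 70366746, minus strand) has 1 member by the nearest-gene rule, 70.9 kb beyond its 3′ end. The 3 members by Gm44812 (70485635-70485934, 70496870-70497169 and 70505954-70506253) stood 119.0, 130.3 and 139.4 kb upstream of Nr2f2, the gene that encodes the immunoprecipitated factor. Within 300 kb on either side of Nr2f2, the XX list had 8 peaks, of which 4 were members, 3 were shared and 1 was an XX-only peak 0.167 kb from the end of the noncoding gene Gm29683. The XY list had only the 3 shared ones, of which 1 lies inside Nr2f2. For scale, 46.3% of all autosomal distal XX peaks were members, so such a count does not by itself set this locus apart. The nearest XY peak to any member there was 66.7 kb away.

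Of the 20 gene lists, which were made by role, 18 had a larger share of genes with a member than the 7.55% of all coding genes, the other two being cell cycle and germ cells. XY-only distal peaks were above their 3.62% in 19 lists and shared distal peaks above their 8.62% in 16, so a share over that of all genes sets no list apart. These shares are descriptions, since lists and members were chosen with results of these data known. List genes named below as without an XY peak are to be set beside the 43.6% of all genes with a member. Of 17 hedgehog genes, 6 (35.3%) had a member. The pathway carries signals from epithelium to mesenchyme. They were Hhat, which acylates the ligand (2 members inside, 9.03 kb apart), Disp1, which releases it, the receptor Ptch1, the co-receptor Gas1 and the effectors Gli2 and Gli3. The members near Gli2 and Gli3 lay 33.4 kb upstream and 29.2 kb downstream, and all 6 genes also had an XY peak. XY-only distal peaks reached 2 of the 17 and shared ones 5.

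In the WNT list 16 of 51 genes (31.4%) had a member, against 2 with an XY-only and 8 with a shared distal peak. They included the ligands Wnt2, Wnt6 and Wnt10a, the receptors Fzd4, Fzd7, Lrp5, Lgr4, Ror1 and Ror2, and the secreted inhibitors Dkk2, Sfrp1 and Wif1. They also took in Apc and Axin2 of the complex that degrades beta-catenin, Tcf7l2, which acts on DNA with it, and Wls, which carries ligands to the cell surface. Axin2, Ror1 and Ror2 had 2 members each. At Axin2, a target that feeds back on the pathway, a member lay inside the gene 0.887 kb from the only XY peak and another 15.2 kb upstream. Wnt2, Wnt6, Fzd4, Dkk2 and Wif1, 5 of the 16, were without an XY peak, a smaller share than the 43.6% of all genes with a member.

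Members fell to 10 of 48 BMP and TGF-beta genes (20.8%), where XY-only distal peaks reached 3 and shared ones 15. The receptor Tgfbr2 had 2 members, both in its last part at 86.6% and 96.6% of the gene, and 1 shared peak. The ligands with a member were Bmp4 (39.8 kb downstream), Bmp7 (inside) and Tgfb2, the inhibitor was Nog, and the effectors were Smad1, Smad3, Id2 and Id3. Eng, a co-receptor of endothelial cells, and Smad1 had no XY peak. In the FGF list 5 of 24 genes had a member, and these were the ligand Fgf18, the feedback inhibitors Spry1, Spry2 and Spred2 and the effector Etv4. XY-only distal peaks reached 4 of the 24 and shared ones 8. In the Notch list 4 of 23 had a member, against 2 with an XY-only and 5 with a shared distal peak: the DNA-binding factor Rbpj, its coactivators Maml1 and Maml3, and the target gene Heyl, which had no XY peak.

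In the mesonephric mesenchyme list 14 of 41 genes (34.1%) had a member, 4 had an XY-only and 16 a shared distal peak. Foxd1, a forkhead factor of stromal cells, had members 9.71 and 34.8 kb downstream. Tbx3, a T-box repressor, had members 1.70 and 28.4 kb outside the gene, beside 2 shared distal peaks. Eya1, Snai2 and Zeb2 had no XY peak, and the member near Eya1 was 699.9 kb from the nearest one. Nr2f1, which encodes the related receptor COUP-TFI, had 1 member 9.45 kb downstream and 2 shared peaks. Of 29 axon guidance genes, 12 (41.4%) had a member, 11 (37.9%) a shared distal peak and 2 (6.90%) an XY-only one. Over all autosomal coding genes these shares were 7.55%, 8.62% and 3.62%. The ligands Sema3c, Sema3d, Sema6a and Efna5 had 2 members each, all inside the genes. The median length of the guidance genes was 197.1 kb.

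Of 44 nuclear receptor genes, 13 (29.5%) had a member, 3 had an XY-only and 8 a shared distal peak. Esr1, the estrogen receptor alpha gene (gene 13982, chromosome 10, 4611989 to 5005633, plus strand), had members at 1.72% and 47.1% of the gene from its start (4618593-4618892 and 4797409-4797708), each over 65 kb from an XY peak. Its 1 XY peak was shared and lay inside the gene, between these members (4712266-4712565). The other receptor genes with a member included the retinoid receptors Rarg and Rxra, the glucocorticoid and mineralocorticoid receptors Nr3c1 and Nr3c2, Nr2f1 and Nr2f2 themselves, and Nr2c1, Nr2e3, Nr4a1, Nr6a1, Ppara and Rora. In the list for androgen and estrogen action, 4 of 24 genes had a member, 2 had an XY-only and 7 a shared distal peak. Beside Esr1 these were the coactivator Ncoa1, Sfrp1 and Srd5a2, a steroid 5-alpha-reductase that makes dihydrotestosterone. Ncoa1 and Srd5a2 had no XY peak. In the retinoic acid list 3 of 20 genes had a member, 1 had an XY-only and 3 a shared distal peak. The 3 with a member were Rarg, Rxra and Aldh1a2, which makes retinoic acid in the mesonephros, and each also had an XY peak.

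For the genital ducts, members fell to 5 of 25 Wolffian duct genes (Emx2, Bmp4, Etv4, Gdnf and Spry1) and to 2 of 24 Müllerian duct genes (Emx2 and Smad1), where XY-only distal peaks reached 4 and 2 and shared ones 6 and 3. Gdnf, a ligand for the outgrowth of the ureteric bud from the Wolffian duct, had 1 member 9.01 kb upstream and no XY peak. The matrix list had 5 of 39 (Dcn, Eln, Nid1, Nid2 and Sparc) against 3 with an XY-only and 11 with a shared distal peak, and smooth muscle had 3 of 18 (Cald1, Itga8 and Tpm2) against 2 and 4.

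For cells that the dissected tissue could also hold, members fell to 2 of 25 gonadal somatic genes, 1 of 15 germ cell genes, 3 of 20 endothelial, 2 of 17 neuronal and 3 of 18 blood and immune genes (16.7%). XY-only distal peaks reached 3, 3, 1, 1 and 1 of these lists' genes in the same order, and shared ones 1, 1, 4, 0 and 0. In the gonadal list these were Runx1, with 2 members inside, 25.1 kb apart, and no XY peak, and Sox9, with 1 member 31.1 kb outside the gene and 10.1 kb from an XY-only peak. The germ cell gene was Kit, 61.8 kb downstream. In the endothelial list they were Eng, Fli1 and Kdr, and in the neuronal list Elavl4 and Syt1. The cell cycle list had 2 of 37 (5.41%), Cdkn1a with 2 members and Ccne1 with 1, against 1 gene with an XY-only and 6 with a shared distal peak.

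**Figure D5:**
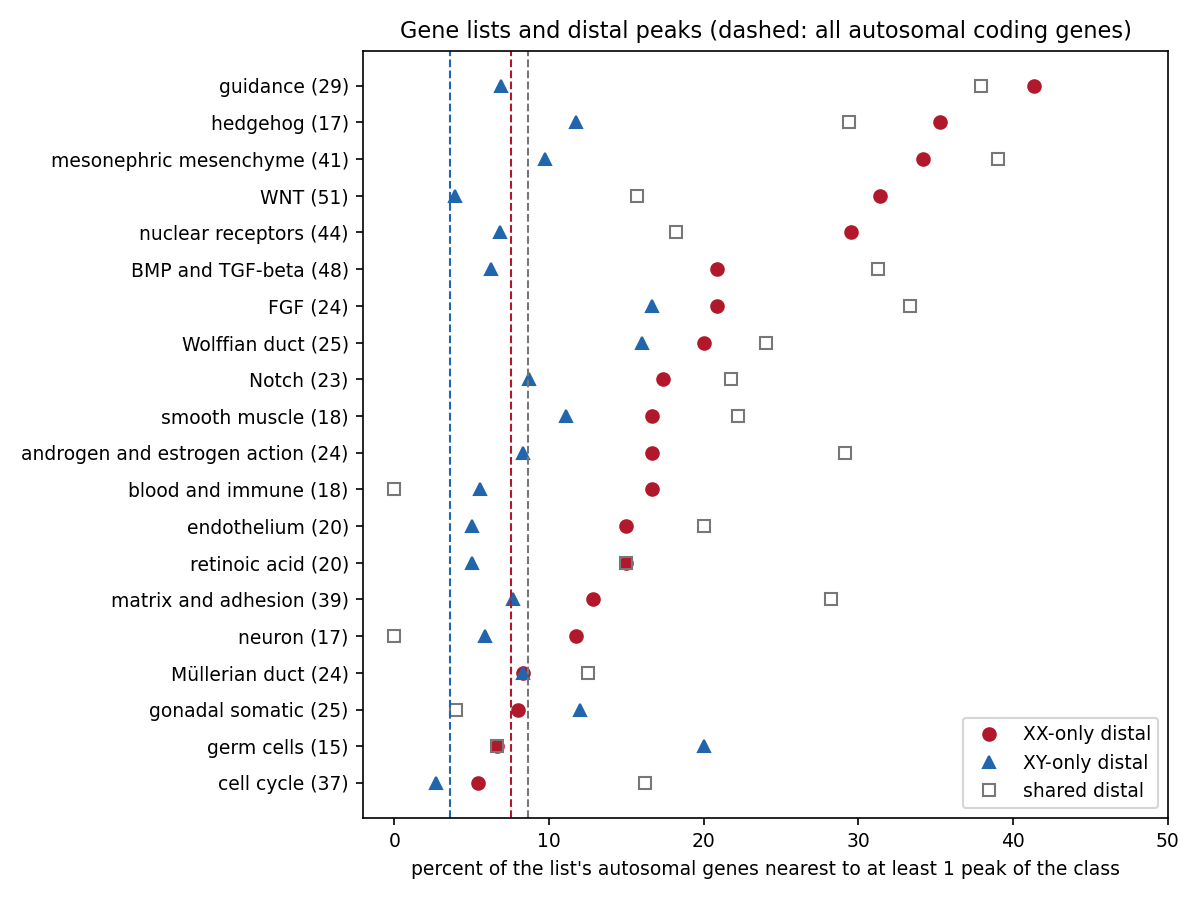
Percent of the autosomal genes of each list (y axis, number of genes in parentheses) that are nearest to at least 1 XX-only, XY-only or shared distal peak (x axis), with dashed lines for all autosomal coding genes at 7.55%, 3.62% and 8.62%. XX-only points are highest for guidance (41.4%) and hedgehog (35.3%) genes and lowest for cell cycle genes (5.41%).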

How the data were processed

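ChIP-seq peaks were analysed as the authors deposited them: 1 BED list per sex with chromosome, start and end on mm10, with no score, and these deposited positions are the only measurement used. Per the submitters' processing notes, the tools were HOMER 4.10.3, Bowtie 1.2, bedtools 2.24.0, cutadapt and Picard. How replicates were combined and which peak threshold applied is not given in the sources used here. Input and signal tracks were not used here. Gene bodies and start windows came from RefSeq tables (GRCm38.p6, 49993 genes, of which 21896 are protein-coding), and coordinates are counted from 1. Classes, distances and motif matches were computed with Python 3.11.15, pandas 2.3.3 and scipy 1.17.1, tested on simulated peaks, and the shared count was checked with bedtools 2.31.1. Each pair of shares was tested with Fisher's exact test (two-sided, conditional odds ratio), Benjamini-Hochberg adjusted over 6 tests (threshold 0.05). Samples were grouped by their titles and labelled sex chromosomes. The genes named were those nearest to 3 or more members (at most 25, by count, then symbol), up to 4 per gene list with most members, those at the 5 tightest runs, those at the limits of the rule, those of the 5 members farthest from any XY peak, and Nr2f2; other list genes are named as examples behind a count. Members and the 20 lists were chosen with earlier results of these data known. For the blood and immune list, counts are given and the genes are not reported here.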

Additional observations from a re-analysis of the deposited data

How the results depend on the processing

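Alternatives changed the overlap that makes a peak shared, the distance kept from gene ends, the distance to the nearest gene, the chromosomes used and the way a gene is assigned. The number of genes with 3 or more members went from 36 to 21 with a gene body at most 10 kb away and to 63 with one at most 500 kb away, as fewer or more peaks then qualify. The odds ratio for a nearby shared peak against XY-only peaks was 0.887 (adjusted p = 0.167, Fisher's exact test), and it passed the threshold at 0.846 (adjusted p = 0.0435) with gene bodies up to 500 kb away and at 0.612 (adjusted p = 0.000332) with shared peaks within 10 kb; the cause was not tested. In the 9 alternatives run for each, the inside-gene ratios stayed between 0.694 and 0.804 against XY-only peaks and between 0.667 and 0.860 against shared peaks, with adjusted p of at most 0.0347 and 0.0350. The start window ratios, whose alternatives were chosen after seeing the data, as was leaving out peaks at starts, stayed between 0.394 and 0.518 and between 0.212 and 0.326. The planned tests of half-sites in whole peaks were not run, as no genome was used. No paired analysis was possible because the peak lists used here, 1 per sex over both replicates, carry no replicate; signal tracks were not used here. Depth limits every share here to an unknown degree.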

Other observations

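The distances from members to other peaks were unevenly spread. The nearest other XX peak lay up to 1.5 kb away for 73 members, between 1.5 and 5 kb for 24 and between 5 and 8.5 kb for 88, although the ranges from 1.5 to 5 kb and from 5 to 8.5 kb are equally wide. The nearest XY peak showed the same shape, with 130, 24 and 76 members, and so did the nearest shared peak, with 52, 15 and 65. These ranges were chosen after the distances were seen.

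The X chromosome, which is outside the rule, had 49 distal XX-only, 18 distal XY-only and 42 distal shared peaks. On the autosomes, the members made up between 41.1% (chromosome 7) and 51.6% (chromosome 16) of the distal XX peaks of a chromosome.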
